A study of Mus musculus with 8 samples.

Results

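The cytochrome P450 genes of families 1 to 4 (Cyp1 to Cyp4), the UDP-glucuronosyltransferase genes (Ugt1a and Ugt2), the cytosolic sulfotransferase genes (Sult) and the glutathione S-transferase genes (Gst) were followed in 8 mouse colon tumours. Members were taken by gene symbol: 135 of the 38355 genes in the deposited tables belonged to these families, namely 75 Cyp, 18 Ugt, 21 Sult and 21 Gst genes. One whole tumour was taken from each mouse, 4 of the Trp53ΔIEC and 4 of the Trp53ΔIECAktE17K genotype. The suffix ΔIEC stands for a deletion restricted to the intestinal epithelium, so that all 8 tumours lack the p53 tumour suppressor there, and E17K names an amino acid change that keeps the kinase AKT active. All mice had been given azoxymethane, a colon carcinogen that the body itself must activate. Not given in the sources used here are the Akt isoform, the Cre driver, the age of the mice and the time of sampling, and no normal colon is part of the comparison. Its question is what active AKT adds to Trp53-deficient colon tumours, seen here through the enzymes that process foreign compounds.

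Drug and xenobiotic metabolism runs in steps. Phase I enzymes, chiefly cytochromes P450, insert or expose a reactive oxygen group, and phase II enzymes attach glucuronic acid (UGT), sulfate (SULT) or glutathione (GST) so that the product can be exported. The liver holds most of this capacity, but the gut epithelium has its own set of such enzymes, which meets dietary compounds first and also handles fatty acids, retinoids, steroids and eicosanoids. In textbook accounts, azoxymethane is oxidised to methylazoxymethanol by CYP2E1, mainly in the liver.

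Each tumour had between 18572180 and 26268547 reads assigned to genes. Because whole tumours were sequenced, fewer cells of a type and less RNA per cell cannot be told apart. Several cell type marker lists differed between the groups. Of the tested markers, 8 of 16 for fibroblasts, 7 of 11 for smooth muscle, 12 of 15 for cardiac muscle, 5 of 12 for squamous epithelium, 1 of 10 for endothelium and 1 of 3 for adipocytes were called higher in Trp53ΔIECAktE17K tumours by edgeR and none lower. The limma-voom alternative called none of the squamous markers, DESeq2 9. None of 13 epithelial markers and none of 12 macrophage and neutrophil markers was called by edgeR (4 and 1 at an unadjusted p under 0.05, 2 and 0 by DESeq2), while for differentiated colonocytes 1 of 18 was called higher and 1 lower. Summed epithelial markers, led by Krt19, Epcam and Lgals4, reached 12512 to 15209.7 CPM in Trp53ΔIEC tumours and 7253 to 15886 CPM in Trp53ΔIECAktE17K tumours. Squamous markers, led by Krt14, Krt5 and Krt6a, summed to 17458, 733, 211 and 3082 CPM in Trp53ΔIECAktE17K replicates 1 to 4 and to 121, 183, 258 and 278 CPM in Trp53ΔIEC replicates 1 to 4, so that Trp53ΔIECAktE17K replicate 1 stood apart. The part of these cell types in the results below was not tested. CPM is the count of a gene relative to the scaled library size.

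Of the 135 members, 13 had no read in any tumour, 56 had between 1 and 278 reads over the 8 tumours and were too low to test, and 66 were tested. Of the tested members 29 averaged at least 10 CPM in a group. Only 1 tested member rose in Trp53ΔIECAktE17K tumours, the sulfotransferase Sult5a1, and 2 fell, the cytochromes Cyp2c29 and Cyp4a14 (edgeR quasi-likelihood test, Benjamini-Hochberg adjusted p under 0.05 over 16539 genes). Those calls are 1.52% and 3.03% of the tested members, beside 3.44% of all tested genes called higher and 0.756% called lower, 4.2% in either direction. All 3 averaged about 1 CPM or less in both groups, and none of the abundant enzymes passed the test. At an unadjusted p under 0.05, 14 members had higher and 6 had lower values, 20 of 66 in all (30.3%), against 12.8% and 8.07% of all genes. Groups did not overlap for 4 members with higher values in Trp53ΔIECAktE17K tumours (6.06%; Sult5a1, Cyp2c65, Cyp4b1 and Sult1c2) and 3 with lower values (4.55%; Cyp2c29, Cyp2c70 and Cyp4a14), beside 8.34% and 5.88% of all tested genes. DESeq2, run as an alternative, called 11 of the 89 members to which it gave an adjusted p higher (12.4%) and 6 lower (6.74%), where it called 8.40% and 3.75% of all genes. Without the filter on low counts edgeR called 2 members higher and 5 lower among the 122 with reads, beside 1.96% and 0.319% of all genes. With 1 tumour left out, 0 to 4 members were called higher and 0 to 4 lower.

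**Figure D1:**
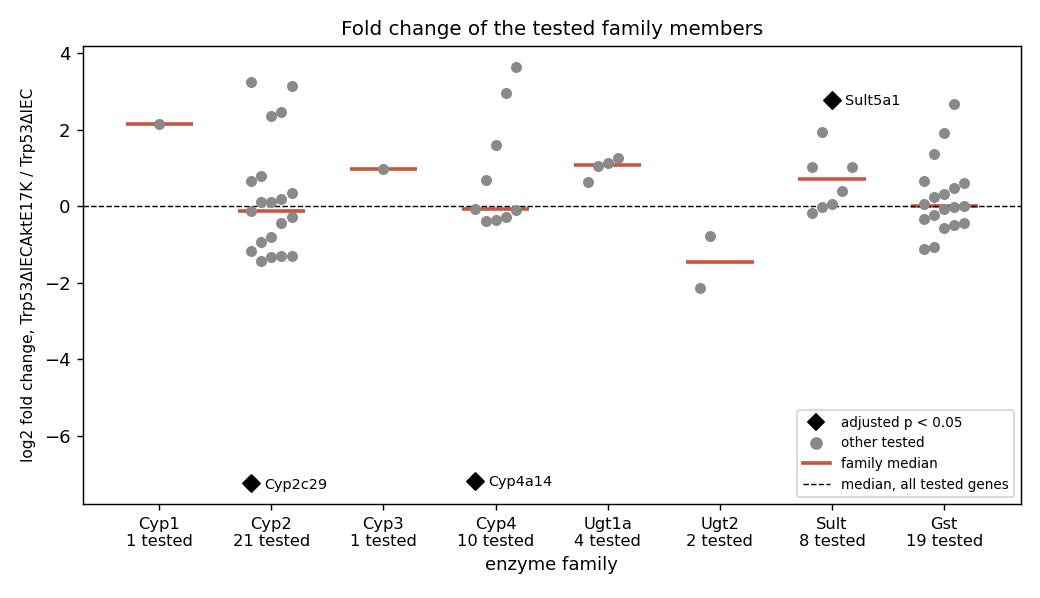
Log2 fold change (Trp53ΔIECAktE17K over Trp53ΔIEC) of every tested member, grouped by family, with diamonds where the adjusted p was under 0.05, a line at each family's median and a dashed line at the median of all tested genes. Values spread to both sides of 0 in the Cyp and Gst families, all 4 Ugt1a points lie above 0, and Sult5a1, Cyp2c29 and Cyp4a14 are the marked genes. The fitted values of Cyp2c29 and Cyp4a14 are set against 0 reads and depend on the prior count.

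The median log2 fold change over the 66 tested members was 0.09, against 0.01 over all tested genes. By family it was -0.06 for Cyp (16 members above and 17 below 0), 0.84 for Ugt (4 and 2), 0.71 for Sult (6 and 2) and -0.00 for Gst (9 and 10). Summed levels did not separate the genotypes in any of the 4 families. Cyp genes together made up 313, 308, 415 and 253 CPM in Trp53ΔIEC replicates 1 to 4 and 402, 213, 224 and 408 CPM in Trp53ΔIECAktE17K replicates 1 to 4 (322 ± 67.5 against 312 ± 108, mean ± SD, n = 4 each). The Gst total was 980.0, 1115, 1092 and 912 CPM against 2069, 1038, 638 and 1256 CPM, with Trp53ΔIECAktE17K replicate 1 highest and replicate 3 lowest of all tumours. Ugt genes summed to 209, 148, 218 and 136 CPM against 180.4, 72.8, 27.8 and 182 CPM, where a single gene, Ugt2b34, supplied 86.0% of the reads. For Sult the values were 64.2, 68.4, 122 and 74.2 CPM against 107, 56.7, 61.6 and 173 CPM. In each family the spread among Trp53ΔIECAktE17K tumours was wider than among Trp53ΔIEC tumours. The widest gap was in the Gst total, with 1250.4 ± 603 against 1025 ± 95.4 CPM (mean ± SD, n = 4 each).

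**Figure D2:**
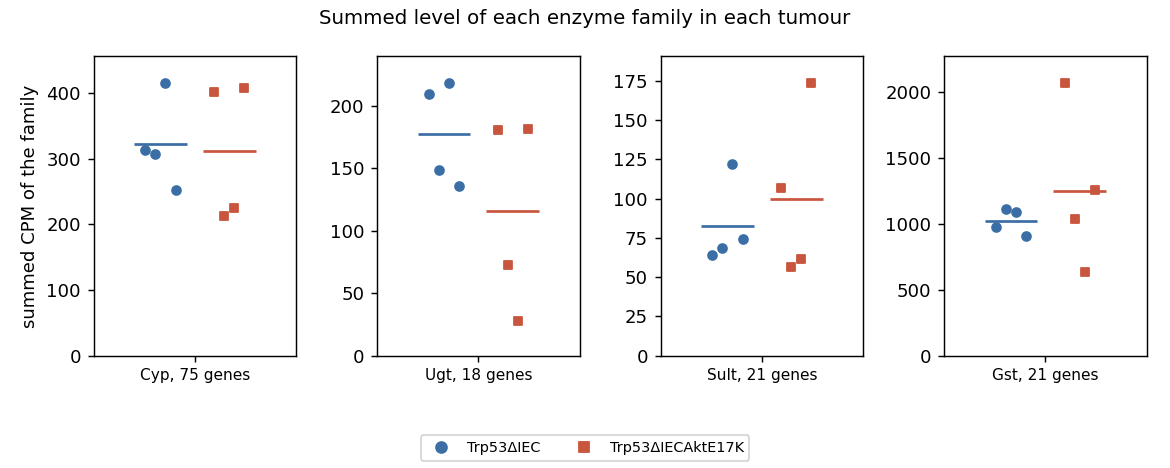
Summed CPM of the Cyp, Ugt, Sult and Gst genes in each tumour (points), with a line at the mean of each group. The groups overlap in all 4 panels, and the Gst total of Trp53ΔIECAktE17K replicate 1 (2069 CPM) lies above all other tumours.

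Within the Cyp2c subfamily 1 gene fell and others had higher values in Trp53ΔIECAktE17K tumours. CYP2C enzymes hydroxylate drugs and turn arachidonic acid into epoxides and hydroxy acids, Cyp2c55 and Cyp2c65 being known from mouse intestine and Cyp2c29, Cyp2c37, Cyp2c50, Cyp2c54 and Cyp2c70 best known from mouse liver. Of the 15 Cyp2c genes in the tables, 14 lie in 1 cluster at chr19:39007019-40187333 (GRCm38). RefSeq promoters (GRCm38.p6, 250 bases before to 50 after the transcript start, strand of the gene) are shown for 3 genes with higher values in Trp53ΔIECAktE17K tumours and for the member that fell, to set neighbouring starts of 1 cluster side by side. They lie at chr19:39006769-39007068, chr19:39060756-39061055 and chr19:39286835-39287134 on the plus strand and at chr19:39741052-39741351 on the minus strand. Capitals mark the motifs searched on both strands, which are GCGTG (the core bound by the aryl hydrocarbon receptor with ARNT), TGACNNNGC (the antioxidant response element), AGGTCA (a hexamer of nuclear receptors), TATAAA (the TATA box) and CAAAGTCCA (an element of the hepatocyte nuclear factor HNF4).
Cyp2c55: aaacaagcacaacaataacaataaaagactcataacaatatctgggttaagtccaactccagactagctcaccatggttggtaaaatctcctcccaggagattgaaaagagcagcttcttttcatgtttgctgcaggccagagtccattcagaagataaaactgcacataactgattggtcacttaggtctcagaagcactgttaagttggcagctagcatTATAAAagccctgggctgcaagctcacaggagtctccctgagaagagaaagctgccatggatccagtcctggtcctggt
Cyp2c65: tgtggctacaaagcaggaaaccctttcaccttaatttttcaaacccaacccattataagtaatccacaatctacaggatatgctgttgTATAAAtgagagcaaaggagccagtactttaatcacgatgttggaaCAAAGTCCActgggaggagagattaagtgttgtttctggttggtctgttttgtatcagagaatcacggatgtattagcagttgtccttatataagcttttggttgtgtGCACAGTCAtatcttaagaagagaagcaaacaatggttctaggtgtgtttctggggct
Cyp2c68: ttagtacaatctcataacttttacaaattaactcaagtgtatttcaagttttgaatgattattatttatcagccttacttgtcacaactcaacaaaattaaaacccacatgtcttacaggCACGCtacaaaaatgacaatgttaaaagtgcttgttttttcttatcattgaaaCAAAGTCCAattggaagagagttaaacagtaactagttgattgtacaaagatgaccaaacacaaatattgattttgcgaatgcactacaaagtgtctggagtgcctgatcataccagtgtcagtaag
Cyp2c29: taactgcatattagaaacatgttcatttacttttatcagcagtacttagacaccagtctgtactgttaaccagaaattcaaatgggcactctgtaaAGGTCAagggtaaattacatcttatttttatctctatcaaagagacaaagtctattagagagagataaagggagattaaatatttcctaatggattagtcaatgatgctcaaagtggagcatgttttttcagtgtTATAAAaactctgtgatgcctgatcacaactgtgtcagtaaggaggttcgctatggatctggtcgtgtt

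CAAAGTCCA stood in the windows of Cyp2c65 and Cyp2c68 and not in those of Cyp2c55 and Cyp2c29. Over all members with a promoter (115 of 135, 132 windows) it was present in 9 windows (6.82%), those of Cyp2c40, Cyp2c65, Cyp2c67, Cyp2c68, Cyp2c69, Cyp2c70, Cyp3a11, Cyp3a16 and Sult1b1, against 0.475% of all 32851 windows. This motif was added to the search after the sequences had been seen. TATAAA stood in 30.3% of the members' windows against 13.6% of all, and AGGTCA in 24.2% against 16.3%. GCGTG was found in 20.5% against 32.4%, and TGACNNNGC in 6.82% against 12.4%. These matches describe letters in a window, and members of 1 cluster share sequence by descent.

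Cyp2c29 fell below detection in every Trp53ΔIECAktE17K tumour. It had 24, 15, 9 and 27 reads in Trp53ΔIEC replicates 1 to 4 (0.918, 0.564, 0.503 and 1.26 CPM) and 0 reads in all 4 Trp53ΔIECAktE17K tumours. That is at least 25.3-fold lower, taking 3 counts over the group as the floor, which like all intervals here covers counting error only (edgeR adjusted p = 0.0179). The adjusted p lay between 0.0509 and 0.0654 without any 1 of the Trp53ΔIEC tumours, and was 0.0729 with the letter in the sample titles as a term. Cyp2c38, Cyp2c37 and Cyp2c39 of the same cluster had this pattern at lower depth. They do not form an unbroken block, as Cyp2c67, Cyp2c68 and Cyp2c69, with higher values in Trp53ΔIECAktE17K tumours, lie between Cyp2c39 and Cyp2c37. Cyp2c38 had 6, 7, 4 and 5 reads against 0 in all 4 tumours (at least 7.42-fold lower), Cyp2c37 had 6, 3, 1 and 5 against 0 (at least 5.06-fold lower), and Cyp2c39 had 9, 9, 6 and 2 against 0, 0, 0 and 1, a ratio of 26.3 (4.32 to 1079, 95% exact interval). All 3 were too low for the edgeR test. Cyp2c70, a bile acid hydroxylase, had 0.995, 0.902, 1.01 and 1.26 CPM against 0.254, 0.658, 0.588 and 0.140 CPM, groups that did not overlap, with a log2 fold change of -1.32 ± 0.46 (SE) that did not pass (adjusted p = 0.149).

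Other genes of the same cluster had higher values in Trp53ΔIECAktE17K tumours. Cyp2c65 measured 0.918, 0.714, 0.894 and 0.977 CPM in Trp53ΔIEC and 5.88, 1.40, 2.56 and 8.38 CPM in Trp53ΔIECAktE17K tumours, without overlap (log2 fold change 2.37 ± 0.56, adjusted p = 0.0543). Cyp2c55 measured 3.41, 2.18, 2.12 and 1.26 CPM against 22.5, 1.89, 11.3 and 44.6 CPM. Only Trp53ΔIECAktE17K replicate 2 lay within the Trp53ΔIEC range of Cyp2c55 (log2 fold change 3.16 ± 0.83, adjusted p = 0.0773). Over the 8 fits that leave out 1 tumour, the adjusted p ranged from 0.0295 to 0.178 for Cyp2c55 and from 0.0369 to 0.146 for Cyp2c65. Each was under 0.05 in 1 fit, the one without Trp53ΔIECAktE17K replicate 2. That tumour held the lowest value of its group for both genes. Omitting it raises the estimates by construction, so this fit adds no support for a difference. Cyp2c68 had 2.03, 0.564, 0.838 and 1.02 CPM against 10.2, 1.03, 2.23 and 11.4 CPM (2.47 ± 0.81, adjusted p = 0.130). Its Trp53ΔIECAktE17K replicates 1 and 4 were the high ones, as they were for Cyp2c55 and Cyp2c65. With both of these tumours omitted, a choice made after their values were seen, the log2 fold changes were 1.51, 1.14 and 0.51 for Cyp2c55, Cyp2c65 and Cyp2c68. Cyp2c67 had 1, 0, 0 and 0 reads against 8, 4, 9 and 10, a ratio of 30.6 (5.11 to 1249), and Cyp2c69 had 0 against 8, 0, 2 and 3, at least 4.28-fold higher. DESeq2 called Cyp2c55, Cyp2c65, Cyp2c67 and Cyp2c68 higher and Cyp2c29, Cyp2c38 and Cyp2c39 lower. Reads that align to several places are counted for no gene, so the levels of these close paralogs come from stretches unique to each gene and are uncertain to that extent. The count of such alignments per assigned read was 0.693 to 0.736 in Trp53ΔIEC and 0.738 to 0.916 in Trp53ΔIECAktE17K tumours. Its bearing on the paralogs was not tested.

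**Figure D3:**
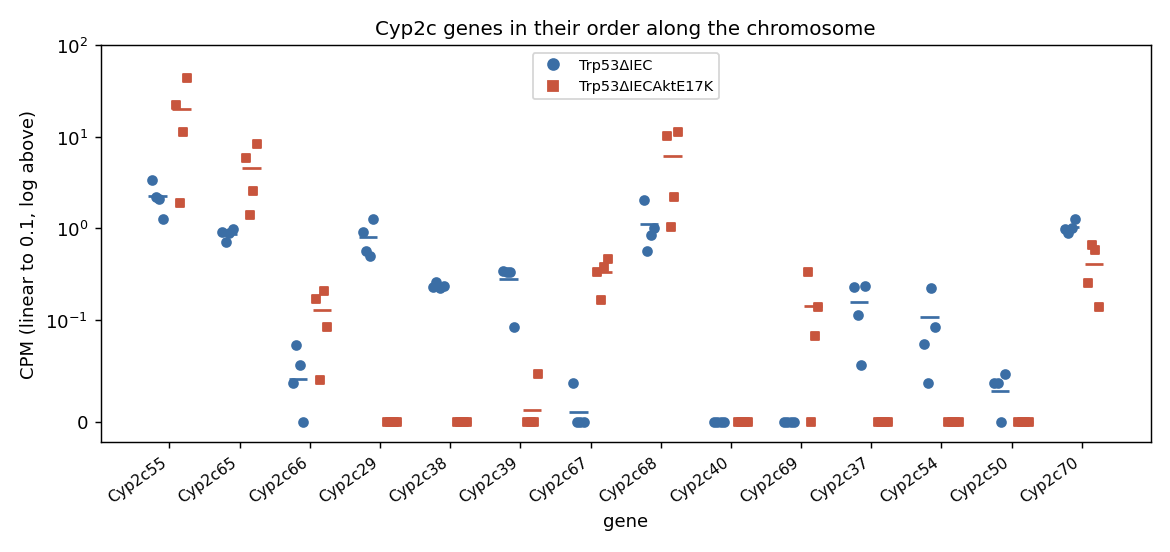
Level of the 14 genes of the Cyp2c cluster on chromosome 19 in genomic order, as CPM per tumour for both genotypes, on an axis that is linear up to 0.1 and logarithmic above, with lines at the means. Cyp2c55, Cyp2c65 and Cyp2c68 have higher values in Trp53ΔIECAktE17K tumours, and Cyp2c29, Cyp2c38, Cyp2c37 and Cyp2c54 have 0 reads in all 4 of them.

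Cyp4a14, a fatty acid omega-hydroxylase of the Cyp4a subfamily known as a PPARα target in mouse liver, fell as Cyp2c29 did. It had 17, 18, 19 and 16 reads in Trp53ΔIEC replicates 1 to 4 (0.651, 0.677, 1.06 and 0.745 CPM) and 0 in every Trp53ΔIECAktE17K tumour, at least 23.6-fold lower (adjusted p = 0.0107). The adjusted p rose to 0.0515 and 0.0551 when Trp53ΔIEC replicate 2 or replicate 4 was left out, and it was 0.0438 with the title letter as a term. The same pattern appeared in members too low to test. Sult1e1, the oestrogen sulfotransferase, had 11, 20, 10 and 12 reads against 0 in all 4 tumours, at least 17.9-fold lower, and was called by DESeq2 (adjusted p = 1.03e-05). Cyp1a2, a liver enzyme that oxidises caffeine and arylamines, had 17, 9, 8 and 15 reads against 0, 0, 2 and 0, a ratio of 24.8 (6.51 to 210.5). DESeq2 called Cyp1a2 lower as well (adjusted p = 0.00227). In all, 10 of 97 members with over 3 reads in the Trp53ΔIEC group (10.3%) were at 0 in all 4 Trp53ΔIECAktE17K tumours, beside 0.596% of all genes with over 3 reads there. Besides those given they were Cyp2a12, Cyp2a22, Cyp2c54, Cyp3a25 and Sult2a6 with 4 to 9 reads each. Among genes too low to test the shares were 25.8% (8 of 31 members) and 2.63% (all genes). In the other direction there were 2 of 87 members (2.3%), beside 2% of all genes, namely Cyp2c69 and Cyp4a32, the latter with all its 10 reads in Trp53ΔIECAktE17K replicate 1.

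Several of these genes are best known from liver, and hepatocyte markers were measured beside them. Of 20 members listed as best known from mouse liver, 8 were tested. By edgeR 2 fell (Cyp2c29 and Cyp4a14) and none rose, beside 0.756% and 3.44% of all tested genes. No read was found for 8 of the 20 in any Trp53ΔIECAktE17K tumour, against 1 in the Trp53ΔIEC tumours. Those counts set no floor on reads, so a member with no read in either group enters both. The shares at 0 given above required over 3 reads in the other group. These members were listed with earlier results known, so their counts are not an independent test. Their median log2 fold change was -0.52 over the 8 tested, and their summed level ranged over 14.3 to 30.7 and 15.6 to 46.1 CPM in the Trp53ΔIEC and the Trp53ΔIECAktE17K group. Of 30 hepatocyte markers 27 were tested. In either direction, 15 had an unadjusted p under 0.05, beside 12.8% higher and 8.07% lower over all tested genes. DESeq2 called 13 of the list and limma-voom 3. By edgeR 3 fell and none rose, with a median of -0.01, and none was at 0 in all tumours of a group. The 3 were Crp with 135, 150, 86 and 104 reads against 1, 0, 0 and 0 (adjusted p = 0.00135), Hpx with 324, 311, 214 and 269 against 28, 69, 31 and 24 (adjusted p = 0.00942) and Itih4 with 153, 165, 86 and 130 against 26, 4, 22 and 9 (adjusted p = 0.0243). Alb, encoding albumin, had 656, 569, 621 and 467 reads against 129, 126, 16 and 202 (adjusted p = 0.0866). Other markers of the list had higher values in Trp53ΔIECAktE17K tumours. Without overlap, 8 of the 27 tested markers were lower and 4 higher, beside 5.88% and 8.34% of all tested genes. The 4 were Arg1 with 1044, 338, 389 and 462 reads against 7460, 1675, 983 and 2500 (adjusted p = 0.0753), Rbp4 with 261, 168, 221 and 111 against 446, 2242, 562 and 354 (adjusted p = 0.0960), Serpina1b with 15, 19, 22 and 9 against 70, 73, 33 and 47 (adjusted p = 0.0628) and Serpina3k with 41, 57, 38 and 32 against 100, 63, 58 and 97 (adjusted p = 0.154). The summed level of the list was 203 to 248 CPM in Trp53ΔIEC tumours and 308 to 518 CPM in Trp53ΔIECAktE17K tumours. By the mean over both groups it was led by Arg1, Trf and Tat. The part of liver-type RNA in the low-level calls was not tested.

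**Figure D4:**
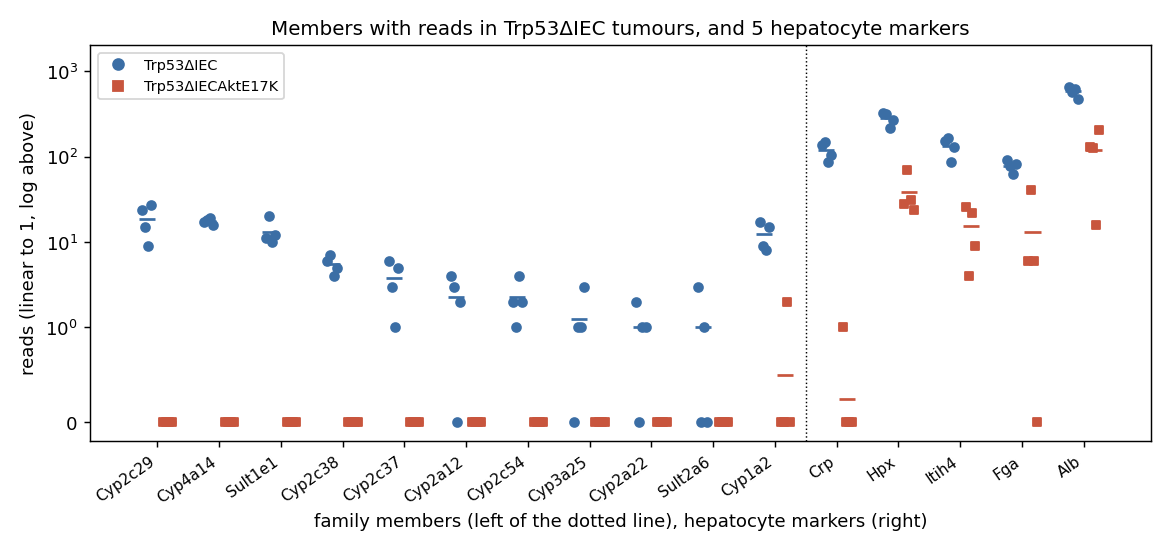
Reads per tumour of low-level members that were at or near 0 in Trp53ΔIECAktE17K tumours, on an axis linear up to 1 read and logarithmic above. Beside them stand the hepatocyte markers Crp, Hpx, Itih4, Fga and Alb, chosen after their values were seen. Over the whole marker list, 8 of 27 tested markers were lower and 4 higher in Trp53ΔIECAktE17K tumours without overlap, and none of those 4 is shown. Over all tested genes these shares were 5.88% and 8.34%. Cyp2c29, Cyp4a14 and Sult1e1 have reads in all 4 Trp53ΔIEC tumours and 0 in all 4 Trp53ΔIECAktE17K tumours, as Crp has apart from 1 read.

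The abundant cytochromes P450 did not pass the test. Cyp2j6, a gene known from mouse intestine, had 64.2 ± 6.98 CPM against 53.1 ± 17.5 CPM (mean ± SD, n = 4 each; log2 fold change -0.27 ± 0.23, adjusted p = 0.544). Cyp2d34 measured 25.7, 20.9, 103 and 33.5 CPM against 16.5, 6.21, 8.10 and 43.1 CPM, with Trp53ΔIEC replicate 3 far above the others (log2 fold change -1.31 ± 0.73, adjusted p = 0.347). Cyp2s1, an extrahepatic enzyme that metabolises retinoic acid, was at 12.2 ± 5.89 and 13.9 ± 12.3 CPM (0.19 ± 0.65, adjusted p = 0.904). Cyp4f13 and Cyp4f16, of a subfamily that omega-hydroxylates leukotrienes and other fatty acids, averaged 44.03 and 37.2 CPM in Trp53ΔIEC tumours. Their log2 fold changes were -0.36 ± 0.20 and -0.06 ± 0.15 (adjusted p = 0.346 and 0.853). Cyp4f40 had -0.28 ± 0.71 (adjusted p = 0.862). Cyp3a13, the intestinal member of the drug-oxidising Cyp3a genes, had 3.75, 2.03, 6.15 and 3.44 CPM against 17.9, 2.67, 2.77 and 6.94 CPM (0.98 ± 0.66, adjusted p = 0.441), and its liver relative Cyp3a11 had 6, 13, 2 and 6 reads against 3, 3, 0 and 11.

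Cyp2e1, whose product acts on azoxymethane in the textbook pathway, was barely expressed. It had 2.45, 1.32, 1.23 and 0.745 CPM in Trp53ΔIEC and 2.58, 0, 3.57 and 0.0931 CPM in Trp53ΔIECAktE17K tumours (0.12 ± 1.16 on the log2 scale, adjusted p = 0.970). Within the Trp53ΔIECAktE17K group it was present in replicates 1 and 3 and at or near 0 in replicates 2 and 4. Cyp2b10, a target of the constitutive androstane receptor, had 9.18, 2.97, 5.48 and 8.24 CPM against 1.35, 1.03, 0.168 and 7.96 CPM (-1.30 ± 0.95, adjusted p = 0.476), where Trp53ΔIECAktE17K replicate 4 was at the level of the Trp53ΔIEC tumours. Its relative Cyp2b23 was a case of 1 tumour, with 1, 1, 0 and 0 reads against 1, 0, 275 and 0. Cyp2w1, known in human colon cancer as a tumour-associated P450, had 1.26, 1.02, 2.74 and 1.12 CPM against 0.677, 0.247, 0.210 and 1.12 CPM (-1.44 ± 0.60, adjusted p = 0.214).

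Further P450 genes had higher values in Trp53ΔIECAktE17K tumours that did not pass the edgeR test. Of those below, DESeq2 called Cyp2f2 (adjusted p = 0.0362) and Cyp4f39 (adjusted p = 0.0468) higher. Cyp1b1, which oxidises oestradiol and polycyclic hydrocarbons and is known from stromal cells, measured 3.83, 0.902, 0.447 and 0.372 CPM against 7.45, 8.52, 7.73 and 1.40 CPM (log2 fold change 2.16 ± 0.86, adjusted p = 0.196). The groups overlapped through Trp53ΔIEC replicate 1 and Trp53ΔIECAktE17K replicate 4. The other Cyp1 genes had few reads, Cyp1a1, the classical induced gene of the aryl hydrocarbon receptor, 3, 2, 0 and 6 against 0, 1, 2 and 3. Cyp4b1 had 0.230, 0.338, 0.391 and 0.0465 CPM against 10.03, 1.07, 0.756 and 0.978 CPM, where replicate 1 was about an order of magnitude above the rest of its group (3.65 ± 1.05, adjusted p = 0.0983). The log2 fold change of Cyp4b1 was 1.85 without that tumour. Cyp4f39, an omega-hydroxylase of ultra-long fatty acids of the skin barrier, had 0.574, 1.58, 2.12 and 2.001 CPM against 30.2, 3.79, 0.0840 and 14.9 CPM (2.97 ± 1.22, adjusted p = 0.211). Its order over the Trp53ΔIECAktE17K tumours, highest in replicate 1, then 4, 2 and 3, was that of the summed squamous markers given above. That order was found in 10 of the 66 tested members, Gsto1, Gsta1 and Gsta4 among them. How often all tested genes have it was not counted, so no excess among the members can be read from this. With 1 tumour left out the adjusted p of Cyp4f39 ranged from 0.0498, without Trp53ΔIECAktE17K replicate 3, to 0.428. As replicate 3 held the lowest value of its group, the fit without it adds no support for a difference. Cyp2f2, known from lung club cells and liver, had 0.765, 0.188, 0 and 0.465 CPM against 7.07, 0.0823, 3.99 and 2.93 CPM (3.26 ± 1.19, adjusted p = 0.165), and Cyp4f14 had 0.344, 0.526, 1.40 and 0.419 CPM against 2.46, 0.658, 1.97 and 2.98 CPM (1.60 ± 0.59, adjusted p = 0.171). Summed fibroblast markers, led by Col3a1, Col1a1 and Col1a2, ranged over 2774 to 4402 CPM in Trp53ΔIEC tumours and 5128 to 8548 CPM in Trp53ΔIECAktE17K tumours. The part of squamous cells and stroma in these values was not tested.

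Glucuronidation genes were not called in either direction by edgeR, nor by DESeq2, and 0 of the 6 tested had an unadjusted p under 0.05. Ugt2b34, of a family that conjugates steroids and bile acids, held most reads of the family, with 194, 129, 189.7 and 125 CPM in Trp53ΔIEC and 150.4, 58.0, 19.9 and 144 CPM in Trp53ΔIECAktE17K tumours (-0.78 ± 0.55 on the log2 scale, adjusted p = 0.461). Trp53ΔIECAktE17K replicates 2 and 3 were below all Trp53ΔIEC tumours, while replicates 1 and 4 lay within their range. Ugt2b35 had 6.81, 8.54, 3.02 and 3.44 CPM against 1.40, 0.0823, 0.210 and 3.26 CPM, where only Trp53ΔIECAktE17K replicate 4 lay within the Trp53ΔIEC range (-2.14 ± 0.96, adjusted p = 0.252). With replicates 1 and 4 of that group omitted, a choice made after the values were seen, Ugt2b35 was called lower (log2 fold change -5.21, edgeR adjusted p = 0.0290). These tumours held the higher Ugt2b35 values of their group. Omitting them lowers the estimate by construction, so this fit adds no support for a difference. The Ugt1a genes, which share their last exons and differ in the first, handle bilirubin and planar phenols. Among 9 of them 4 were tested and all 4 had estimates above 0. Ugt1a7c measured 6.74, 8.12, 18.9 and 5.21 CPM against 19.6, 9.71, 6.13 and 25.0 CPM (0.63 ± 0.54, adjusted p = 0.551). Log2 fold changes of Ugt1a6a, Ugt1a6b and Ugt1a8 were 1.05, 1.25 and 1.14 (adjusted p = 0.445, 0.317 and 0.385). Reads in the shared exons count for no single gene, which leaves 385 to 2142 of 2190 to 4312 exon bases per Ugt1a gene.

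Sult5a1 was the only member that rose. It is a little-studied sulfotransferase at chr8:123140192-123158315 (GRCm38), with 3, 3, 4 and 3 reads (0.115, 0.113, 0.223 and 0.140 CPM) in Trp53ΔIEC and 37, 25, 24 and 11 reads (1.57, 1.03, 1.01 and 0.512 CPM) in Trp53ΔIECAktE17K tumours. Every Trp53ΔIECAktE17K tumour lay above every Trp53ΔIEC tumour, and the log2 fold change was 2.79 ± 0.44 (adjusted p = 0.0183). The adjusted p lay between 0.0541 and 0.0760 without any 1 of the Trp53ΔIEC tumours, and was 0.0838 with the title letter as a term. Sult1c2 had 2.83, 0.639, 1.12 and 2.09 CPM against 7.75, 3.91, 3.40 and 10.9 CPM, also without overlap. It did not pass the edgeR test (1.95 ± 0.57, adjusted p = 0.103), while DESeq2 called it higher (adjusted p = 0.00871). Sult1b1, the major intestinal sulfotransferase of phenols and thyroid hormone, had the most reads of its family, with 25.0, 31.2, 74.8 and 26.6 CPM against 37.2, 7.86, 12.5 and 83.0 CPM. Its lowest and its highest value were both in the Trp53ΔIECAktE17K group (-0.16 ± 0.72, adjusted p = 0.926). Sult2b1, which sulfates cholesterol, averaged 19.6 ± 6.37 and 20.5 ± 6.35 CPM (0.06 ± 0.31, adjusted p = 0.937). Sult4a1, a gene of neural tissue with no settled substrate, had 7.35, 5.90, 4.30 and 10.7 CPM against 5.84, 20.5, 18.6 and 13.4 CPM (1.04 ± 0.43, adjusted p = 0.215).

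Glutathione transferases had the highest levels per length of all members, and edgeR called none. Of the 19 tested, 5 had an unadjusted p under 0.05, 3 with higher and 2 with lower values in Trp53ΔIECAktE17K tumours. Over all tested genes these shares were 12.8% and 8.07%. Per kilobase of exon not shared with other genes, the highest levels among the members were those of Gsta4 (198 CPM per kb in Trp53ΔIEC and 206 in Trp53ΔIECAktE17K tumours), Gsto1 (96.1 and 249) and Gstm5 (139 and 98.7). Ugt2b34 reached 36.9 and 21.6 CPM per kb and Cyp2j6 17.8 and 14.7. Gsto1, an omega-class enzyme that reduces dehydroascorbate and methylated arsenic, had 254, 179, 219 and 125 CPM against 1107, 317, 189 and 404 CPM. Replicate 1 of the Trp53ΔIECAktE17K group stood above all other tumours, and replicate 3 lay within the Trp53ΔIEC range (log2 fold change 1.38 ± 0.52, adjusted p = 0.178). Gsta4, which conjugates the lipid peroxidation product 4-hydroxynonenal, varied widely in both groups, with 59.4, 367, 357 and 219 CPM against 514, 204, 59.8 and 265 CPM (0.06 ± 0.68, adjusted p = 0.975). Gsta3, whose product detoxifies aflatoxin epoxide in mouse, had 2.64, 4.40, 9.61 and 3.86 CPM against 20.3, 27.3, 3.65 and 25.6 CPM, with only Trp53ΔIECAktE17K replicate 3 inside the Trp53ΔIEC range (1.91 ± 0.64, adjusted p = 0.137). With 1 tumour left out its adjusted p ranged from 0.0369, without that tumour, to 0.266, and was under 0.05 in 1 of 8 fits. As that tumour held the lowest value of its group, the fit without it adds no support for a difference in Gsta3. Its paralog Gsta1 had 0.0765, 0.150, 0.838 and 0.372 CPM against 4.57, 1.19, 0.252 and 2.98 CPM (2.68 ± 0.96, adjusted p = 0.157), and Gsta2 had 2, 2, 3 and 8 reads against 68, 36, 2 and 18 and was not tested. DESeq2 called Gsta1, Gsta2 and Gsta3 higher. Gsto1, Gsta1 and Gsta4 had the order of the summed squamous markers over the Trp53ΔIECAktE17K tumours. How often all tested genes have that order was not counted, and the part of squamous cells was not tested.

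The mu class had mostly negative estimates. Its 7 genes together summed to 471, 389, 289.7 and 408 CPM in Trp53ΔIEC and 257, 315, 237 and 304 CPM in Trp53ΔIECAktE17K tumours (389 ± 75.1 against 278 ± 37.2, mean ± SD, n = 4 each), and 5 of the 7 had estimates below 0. Gstm5, the most abundant, had 198, 146, 140.3 and 127 CPM against 103, 145, 106 and 80.7 CPM (-0.49 ± 0.21, adjusted p = 0.223). Gstm6 had 41.0, 24.8, 12.1 and 23.5 CPM against 13.2, 14.4, 6.43 and 12.4 CPM (-1.12 ± 0.39, adjusted p = 0.150). For Gstm7 the values were 92.2, 127, 41.8 and 154 CPM against 46.1, 50.9, 4.83 and 96.9 CPM (-1.06 ± 0.73, adjusted p = 0.451), the lowest being again Trp53ΔIECAktE17K replicate 3. None of the mu-class genes separated the groups without overlap.

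**Figure D5:**
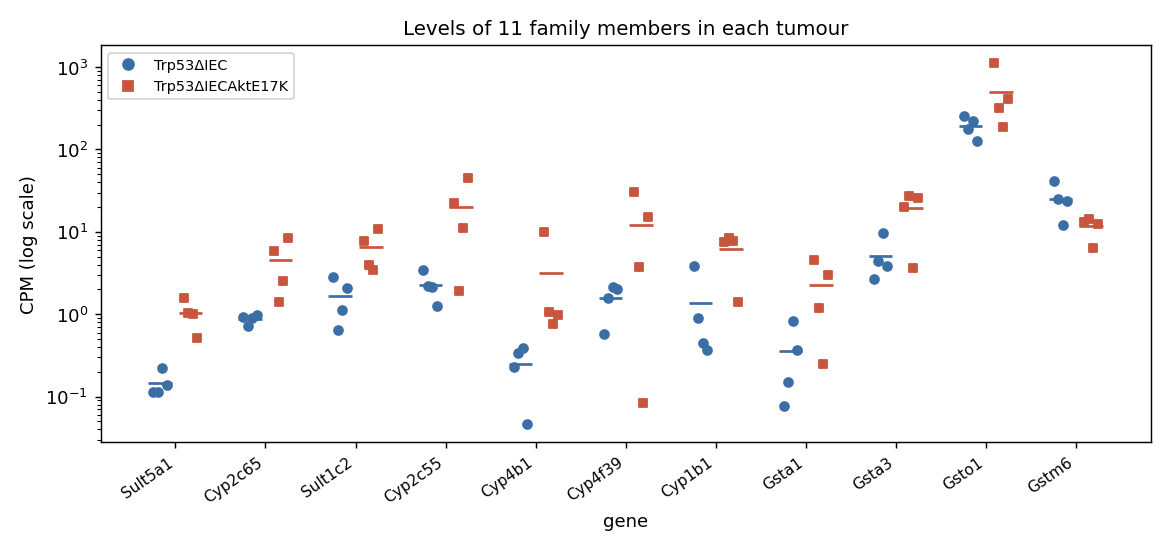
CPM in each tumour (log axis) of 11 members named in the text, for both genotypes, with lines at the means. Sult5a1, Cyp2c65, Cyp4b1 and Sult1c2 do not overlap between the groups, while Gsto1, Gsta3 and Cyp4f39 overlap through single Trp53ΔIECAktE17K tumours.

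None of 20 listed regulators of these families was called by edgeR (median log2 fold change -0.19; 2 at an unadjusted p under 0.05, 2 by DESeq2 and 0 by limma-voom), among them the receptors for dioxins and drugs Ahr, Nr1i2 and Nr1i3. The smallest unadjusted p values belonged to Tiparp, an ADP-ribosyltransferase induced by the aryl hydrocarbon receptor (0.88 ± 0.27, adjusted p = 0.111), and to Hnf4a, the HNF4 factor of gut and liver epithelium. Hnf4a had 9671, 12630, 12820 and 8334 reads in Trp53ΔIEC and 3883, 2615, 1003 and 7558 reads in Trp53ΔIECAktE17K tumours (-1.55 ± 0.57, adjusted p = 0.168). In CPM, the groups overlapped for neither Hnf4a nor Tiparp. None of the 17 genes listed as NRF2 targets outside the families was called by edgeR, with a median of 0.07 (2 at an unadjusted p under 0.05, 1 by DESeq2 and 0 by limma-voom). Ftl1 (0.42 ± 0.14, adjusted p = 0.130, without overlap) and Slc7a11 (1.55 ± 0.51, adjusted p = 0.132, with overlap) had the smallest unadjusted p. That list is not exhaustive, and Cbr3 and Aldh3a1, both called higher by edgeR, were counted with the phase I enzymes below.

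Among 31 other phase I enzymes and electron donors 3 rose and none fell by edgeR, with a median of 0.11, beside 3.44% and 0.756% of all genes. Of the same list 10 had an unadjusted p under 0.05, all 10 with higher values in Trp53ΔIECAktE17K tumours. Over all tested genes the shares were 12.8% higher and 8.07% lower. DESeq2 called 7 and limma-voom 0. The 3 called by edgeR were Cbr3, a carbonyl reductase, Ces1f, a carboxylesterase, and Aldh3a1, an aldehyde dehydrogenase best known from cornea. Cbr3 had 1.88, 1.54, 3.35 and 2.23 CPM against 25.7, 9.88, 66.8 and 15.8 CPM (3.72 ± 0.63, adjusted p = 0.0232). Ces1f had 1.61, 1.09, 1.06 and 1.63 CPM against 26.4, 2.55, 32.4 and 12.7 CPM (3.77 ± 0.72, adjusted p = 0.0296). Aldh3a1 had 0.344, 0.414, 0.838 and 0.419 CPM against 51.1, 1.77, 47.1 and 3.54 CPM (5.69 ± 1.19, adjusted p = 0.0402). Of 15 tested genes of other conjugation and cofactor supply none was called (median -0.26; 2 at an unadjusted p under 0.05, 1 by DESeq2), among them the microsomal glutathione transferase Mgst1 at 1.25 ± 0.44 (adjusted p = 0.154). Nor was any of 13 tested transporters, with a median of -0.06 (1 at an unadjusted p under 0.05, 2 by DESeq2). Abcc2, the export pump for glutathione and glucuronide conjugates, had -3.34 ± 1.27 without overlap of the groups (adjusted p = 0.180). The prostaglandin carrier Slco2a1 had 0.77 ± 0.38 with overlap (adjusted p = 0.294). Members listed as best known from mouse gut epithelium (9 of 9 tested) had no call and a median of 0.19 (3 at an unadjusted p under 0.05, 3 by DESeq2 and 0 by limma-voom). Their summed level ranged over 198 to 339 CPM in Trp53ΔIEC tumours and 74.5 to 366 CPM in Trp53ΔIECAktE17K tumours. Summed differentiated colonocyte markers, led by Ceacam1, Vil1 and Muc3, ranged over 2133 to 4500.1 and 1117 to 4767 CPM.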

How the data were processed

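RNA of 8 whole tumours was extracted with RNeasy columns and made into TruSeq mRNA v2 libraries, a kit that does not mark strand, per the labels' protocols. The authors deposited raw counts of reads per Ensembl gene for every tumour, 38355 genes followed by 5 summary lines that were left out of library sizes. Those lines put 9.74% to 11.7% of uniquely aligned reads outside annotated features and 1.93% to 2.32% on several genes. Per the submitters' processing notes the build is mm10 and the tools named, with no roles stated, were STAR 2.3.0, HTSeq 0.6, SAMtools 1.2, CASAVA 1.8.2 and DESeq2 1.8.1. The annotation release is not given in the sources used here. GENCODE M21 (GRCm38) gave symbols and positions for 36602 identifiers (95.4%), and 1 family gene of M21, Ugt2a1, was not analysed here.

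All genes were fitted with edgeR 4.0.16 (filterByExpr, TMM scaling, robust quasi-likelihood F-test, genotype as the only term) and p-values of the 16539 tested genes were adjusted by Benjamini-Hochberg. Mice are the replicates. Alternatives were other scalings and filters, DESeq2 1.42.0, limma-voom (limma 3.58.1), the replicate number or the title letter as a term, and leaving out tumours. The letter is A for 2 Trp53ΔIECAktE17K tumours and B for the other 6, and its meaning is not given in the sources used here.

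The members and the gene lists were chosen with earlier results of these data known. Members named were those called, the 3 most abundant tested members of each of Cyp1, Cyp2, Cyp3, Cyp4, Ugt1a, Ugt2, Sult and Gst, and the 2 with the smallest unadjusted p of a family with no call. Of each other list, up to 3 called genes, or else the 2 with the smallest unadjusted p, were named, and of cell markers the 3 most abundant by the mean over both groups. A gene that this rule names is not reported here. Of the members named with values, 25 follow this rule and 25 were chosen after their values were seen, as were the hepatocyte markers given with reads. Promoters came from RefSeq (GRCm38.p6).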

Additional observations from a re-analysis of the deposited data

Results flagged for a closer look

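Among 102 groups of 4 tumours, 94 of single named members and 8 of the summed families, 12 held a tumour whose distance to its nearest neighbour was too large a share of the group's range by Dixon's criterion at the 95% level. Chance alone flags about 1 in 20 groups of values that spread normally. That rate does not hold for low counts, and in 3 of the 12 the other tumours were all at 0. Of the flagged tumours, 6 belonged to each genotype.

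In Trp53ΔIEC tumours, replicate 3 stood above the others for Cyp2d34 (103 CPM), Cyp2w1 (2.74 CPM) and Sult1b1 (74.8 CPM). Replicate 1 stood apart for Cyp1b1 (3.83 CPM) and Cyp2c67 (0.0383 CPM, a single read), and replicate 4 was below the others for Cyp2c39 (0.0931 CPM).

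In Trp53ΔIECAktE17K tumours, replicate 1 stood above the others for Cyp4b1 (10.03 CPM), and replicate 3 did so for Cyp2b23 (11.5 CPM) and Cyp1a2 (0.084 CPM, 2 reads). Replicate 4 was high for Cyp2b10 (7.96 CPM) and Cyp2c39 (0.0466 CPM, a single read) and low for Cyp1b1 (1.40 CPM).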

How the results depend on the processing

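The counts of calls moved with the settings, while the directions of the 3 called genes did not. Members called higher numbered 2 with upper-quartile scaling (Cyp2c65 joining Sult5a1) and 2 with no filter on low counts, 11 with DESeq2, and 0 with a minimum of 1 CPM in 4 libraries, which removes all 3 called genes before the test. Members called lower numbered 6 with DESeq2, 5 without the filter, 0 with that minimum and 4 when Trp53ΔIECAktE17K tumours 1 and 4 were both omitted, an alternative chosen after seeing the data. With the title letter as a term 0 were higher and 1 lower. Leaving out 1 tumour at a time gave 0 to 4 higher and 0 to 4 lower members, with 0 higher without each Trp53ΔIEC tumour and 4 without Trp53ΔIECAktE17K replicate 3. By family, Cyp calls were 1 higher with upper-quartile scaling, 6 higher and 5 lower with DESeq2, 1 and 4 without the filter, 0 lower with the stricter filter, 1 lower with the letter, and 0 to 2 higher and 0 to 3 lower with 1 tumour left out. Sult calls were 2 higher and 1 lower with DESeq2, 1 lower without the filter, 0 higher with the stricter filter or the letter, 1 lower with both tumours omitted, and 0 to 1 in each direction with 1 tumour left out. Gst calls were 3 higher with DESeq2 and 0 to 2 with 1 tumour left out, and 1 Ugt gene was lower with both tumours omitted. Over all genes, 569 higher and 125 lower calls became 1721 and 768 with DESeq2, 90 and 6 with the letter, 64 to 702 and 10 to 247 with 1 tumour left out, and 223 lower with both omitted.

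The labels do not say whether the numbers in the titles pair the tumours. Deviations of same-numbered tumours correlated at -0.0393, 0.0083, -0.2431 and 0.0093, and those of differently numbered tumours between -0.2418 and 0.2504. With so few tumours this check shows no pairing but cannot exclude it. As a replicate block the numbers left 0 members called in either direction (0 Cyp lower, 0 Sult higher). Over all genes 48 were then higher and 2 lower, with edgeR adjusted p of 0.0777 for Sult5a1 and 0.117 for Cyp2c29 and Cyp4a14.

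The family medians of Ugt and Sult turned negative where low genes entered: -0.53 and -0.10 with DESeq2, and -0.51 and -0.081 without the filter. With 1 tumour left out the Sult median ranged from 0.098 (Trp53ΔIECAktE17K replicate 4; 0.10 without replicate 1) to 0.73, and it was -0.38 with both omitted. Of 694 values of 39 tested named members under 18 alternatives, 633 kept their direction and side of the threshold, 15 lost and 14 gained a call, and 32 changed sign, none of the 32 called in either fit. Sign changes were as follows, as log2 fold changes. With both tumours omitted Cyp2s1 was at -1.28, Cyp3a13 at -0.52, Gsta4 at -0.95, Sult2b1 at -0.38 and Ugt1a7c at -0.32. With limma-voom Cyp2e1 was at -1.80, Cyp2s1 at -0.046 and Gsta4 at -0.011. With the replicate block they were at -1.10, -0.037 and -0.11. With the letter Cyp2s1 was at -0.39, Cyp4f40 at 0.073, Gsta4 at -0.63 and Sult1b1 at 0.28. With 1 tumour left out, values ranged across 0 for Cyp2e1 (-0.67 to 0.51), Cyp2s1 (-0.60 to 0.50), Cyp4f16 (-0.17 to 0.0021), Cyp4f40 (-1.002 to 0.44), Gsta4 (-0.53 to 0.40), Sult1b1 (-1.05 to 0.32) and Sult2b1 (-0.15 to 0.21). No scaling moved the median of all genes by over 0.1. The cause of these changes was not tested. Depth limits the low members most: for the 69 members not tested, a difference was not detectable by the main test.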
